A study of Mus musculus with 14 samples.

Results

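The expression of 10 genes of tendon and of the annulus fibrosus, the fibrous outer ring of the intervertebral disc (IVD), was followed in mouse caudal IVDs from 2 models of type 2 diabetes. The genes were *Scx*, *Mkx*, *Egr2*, *Tnmd*, *Abi3bp*, *Fn1*, *Tnc*, *Thbs2*, *Thbs4* and *Postn*. They were chosen by symbol from the 55487 genes counted, and all 10 were among the 16915 genes that exceeded a CPM (counts scaled to the library total) of 1 in at least 3 libraries and were tested. Levels given below in CPM were instead scaled to the total over the genes tested and to a TMM factor of each library (0.693 to 1.61). The db/db mice (n=3) lack a working leptin receptor, and their controls were db/+ heterozygotes (n=3), and all 6 were 12 weeks old. The STZ-HFD mice (n=4) were C57BL/6J animals that began at 12 weeks of age, received a high-fat diet for 4 to 6 weeks and 1 injection of 100 mg/kg streptozocin, which damages pancreatic β-cells, and stayed on the diet for 12 weeks more. The Con+Veh mice (n=4), labelled wild type, were C57BL/6J animals on standard chow that received the injection buffer alone. All mice were male, and the RNA of each library came from 5 caudal IVDs pooled from 1 mouse, with the annulus fibrosus not separated from the nucleus pulposus. Each diabetic group was therefore compared with its own control, because age, strain and schedule could not be told apart between the cohorts.

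*Scx*, *Mkx* and *Egr2* encode transcription factors. Scleraxis (*Scx*) and Mohawk (*Mkx*) direct the formation of tendon and of the outer annulus, and EGR2 acts both in tendon differentiation and in Schwann cells, where it switches on myelin genes. Tenomodulin (*Tnmd*) is a membrane protein that marks mature tendon and ligament cells and is also made by adipocytes. The other 6 genes encode secreted proteins of the extracellular matrix, which sit between collagen fibrils and cell surface receptors and are made in large amounts when fibrous tissue forms, is loaded or heals.

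Libraries held 16076908 to 58943169 counts, of which 28.1% to 60.2% fell on ribosomal RNA genes. Before TMM scaling, 3 counts corresponded to 0.0509 to 0.187 CPM, a floor that covers counting error only. The limma fit gave each library a weight by its scatter, lowest in Con+Veh replicate 1 (0.275) and highest in Con+Veh replicate 3 (3.05). Con+Veh replicates 3 and 4 also had the lowest chi-square per degree of freedom, 55.5, against 127 to 585 for every other pair within a group. This value was computed on raw counts and depends on depth, and these libraries had the fewest counts in Con+Veh (27915536 and 23173075). STZ-HFD replicate 1, with the fewest counts of all (16076908), had values of 213.5 to 234 in its pairs. Of the 7 markers of nucleus pulposus cells, 6 were found, and *Noto* and *Shh* were at 0 in 11 and 8 of the 14 libraries. The 4 keratinocyte markers summed to 1.71 to 8.35 CPM, and *Krt5*, *Krt14* and *Krt1* were at 0 in 10, 6 and 3 libraries. Because pooled tissue was sequenced, fewer cells of a type and less RNA per cell cannot be told apart in any result given here.

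Per kilobase of exon, *Fn1* and *Abi3bp* were the most abundant of the 10 genes in both control groups. Fibronectin (*Fn1*) reached 814 ± 324 CPM per kb in db/+ (mean ± SD, n=3) and 205 ± 90.1 in Con+Veh (n=4), and *Abi3bp* reached 335 ± 93.0 and 185 ± 85.2. In db/+ they were followed by *Thbs4* at 68.5 ± 36.4 CPM per kb, *Tnc* at 47.1 ± 19.6 and *Thbs2* at 18.2 ± 7.06. *Tnmd*, *Mkx* and *Postn* lay between 2.40 and 6.33 CPM per kb in db/+, and *Egr2* and *Scx* were lowest at 1.46 ± 0.685 and 0.955 ± 0.161. Group ranges of neighbouring groups in the order of a gene's 4 mean levels overlapped for most genes. The exceptions were *Postn*, where db/db lay above Con+Veh, and *Abi3bp*, *Fn1* and *Tnc*, where STZ-HFD lay below Con+Veh.

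**Figure D1:**
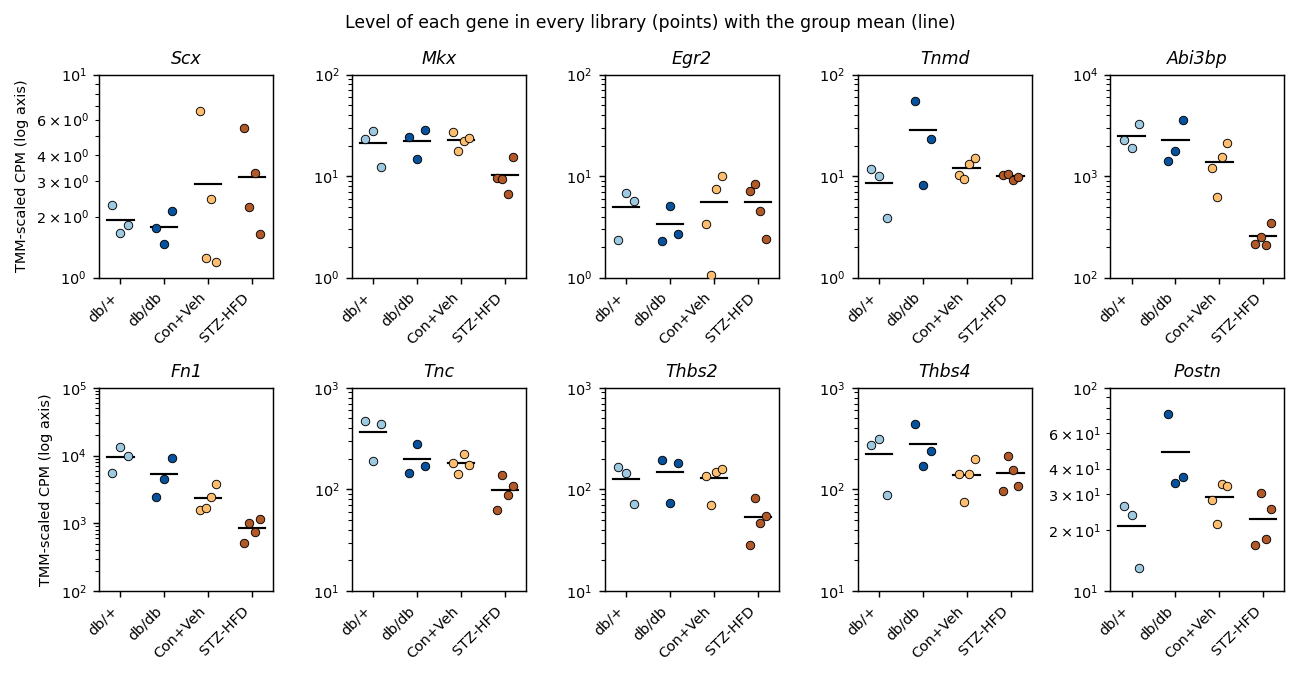
TMM-scaled CPM of each gene (log axis) in all 14 libraries, with the db groups on the left of each panel and the STZ-HFD cohort on the right; points are libraries (1 mouse each) and lines are group means. In *Abi3bp*, the 4 STZ-HFD libraries sat at 210 to 347 CPM and all Con+Veh libraries at 618 or above.

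In STZ-HFD IVDs, 4 of the 10 genes were lower than in Con+Veh, namely *Abi3bp*, *Fn1*, *Thbs2* and *Mkx*. Calls required a Benjamini-Hochberg adjusted p below 0.05 together with at least a doubling or halving of the level, that is 1 on the log2 scale in either direction, and 1.31% of all genes tested were called lower by this rule. None of the 10 genes was called higher. The median log2 fold change of the 10 genes was -0.79, beside -0.04 over all genes tested, and 9 of the 10 values were below 0. Of the 10 genes, 4 were lower in all STZ-HFD libraries than in any Con+Veh library (*Abi3bp*, *Fn1*, *Mkx* and *Tnc*), beside 2.77% of all genes tested.

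*Abi3bp* (ENSMUSG00000035258, chromosome 16 from 56477878 to 56690135 of GRCm38) encodes a collagen- and integrin-binding matrix protein also known as TARSH. Its levels were 1205, 618, 1536 and 2130 CPM in the Con+Veh libraries and 215, 253, 210 and 347 CPM in the STZ-HFD libraries. Every STZ-HFD library was below every Con+Veh library, and the STZ-HFD mice differed little among themselves (256 ± 63.6, mean ± SD, against 1372 ± 632). Its log2 fold change was -2.61 (SE = 0.29, limma adjusted p = 0.000182). It was called in all 14 fits that left out 1 library, with values from -2.82 to -2.30, and edgeR's quasi-likelihood test and DESeq2 also called it, with adjusted p = 0.0454 and 6.68e-08. Without a filter on low counts, the adjusted p was 0.0711.

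*Fn1* (ENSMUSG00000026193, chromosome 1 from 71585520 to 71653200) encodes fibronectin, the glycoprotein on which cells assemble other matrix fibres. Its levels were 1587, 1666, 2466 and 3857 CPM in Con+Veh and 513, 993, 736 and 1175 CPM in STZ-HFD. The groups did not overlap, with 1175 CPM in the highest STZ-HFD library and 1587 CPM in the lowest Con+Veh library. The fitted log2 fold change was -1.62 (SE = 0.34, limma adjusted p = 0.0179). The call was lost without Con+Veh replicate 3, Con+Veh replicate 4 or STZ-HFD replicate 3, with log2 fold changes of -1.73, -1.32 and -1.51 and adjusted p = 0.201, 0.163 and 0.187 (limma).

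*Thbs2* (ENSMUSG00000023885, chromosome 17 from 14665500 to 14694235) encodes thrombospondin-2, a matricellular protein that limits blood vessel growth and shapes collagen fibrils. It stood at 134, 70.4, 149 and 160 CPM in Con+Veh and at 28.5, 81.6, 46.7 and 55.3 CPM in STZ-HFD. STZ-HFD replicate 2 was above Con+Veh replicate 2, so the groups overlapped. The fitted log2 fold change was -1.46 (SE = 0.31, limma adjusted p = 0.0193). With 1 library left out it was called 10 times in 14, and not without Con+Veh replicate 3 or 4 or STZ-HFD replicate 3 or 4, where it was -1.35, -1.31, -1.38 and -1.44.

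*Mkx* (ENSMUSG00000061013, chromosome 18 from 6934518 to 7004780) had levels of 27.0, 17.8, 22.3 and 23.5 CPM in Con+Veh and 9.62, 9.35, 6.74 and 15.3 CPM in STZ-HFD. All STZ-HFD libraries were below all Con+Veh libraries. Its log2 fold change was -1.16 (SE = 0.31), and at an adjusted p = 0.0496 (limma) the call lay at the threshold. Among the fits that left out 1 library, 5 of 14 called it, with log2 fold changes from -1.49 to -0.86. The 5 were those without Con+Veh replicate 2, STZ-HFD replicate 1, db/+ replicate 2 or 3, or db/db replicate 2, and the highest adjusted p was 0.42 (limma), without STZ-HFD replicate 3. The annotation places a second gene, AC148004.2, on the same strand as *Mkx*, and they share 201 exonic bases, so part of the reads cannot be assigned with certainty.

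*Tnc* (ENSMUSG00000028364) encodes tenascin-C, which appears in loaded and healing tendon. It lay just outside the threshold, with 182, 141, 224 and 173 CPM in Con+Veh and 63.0, 138, 87.7 and 108 CPM in STZ-HFD. The groups did not overlap, although STZ-HFD replicate 2 and Con+Veh replicate 2 were nearly level. The fitted log2 fold change was -0.99 (SE = 0.27, limma adjusted p = 0.0521). Leaving out 1 library gave log2 fold changes from -1.05 to -0.75 and 2 calls in 14 fits. An antisense transcript, 8030451A03Rik, shares 176 exonic bases with *Tnc*, and *Apol7d* shares 292 with *Fn1*, and whether reads were counted by strand is not given in the sources used here.

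The other 5 genes were not called in STZ-HFD. Periostin (*Postn*), a collagen-binding protein of loaded connective tissue, was at 28.2, 21.4, 33.7 and 32.9 CPM in Con+Veh and at 16.8, 30.3, 18.0 and 25.2 CPM in STZ-HFD, and changed by -0.52 on the log2 scale (SE = 0.27, limma adjusted p = 0.332). *Tnmd* was nearly constant in STZ-HFD, at 9.22 to 10.5 CPM, and overlapped the 9.39 to 15.0 CPM of Con+Veh. *Thbs4*, which encodes thrombospondin-4 of the tendon and muscle attachment matrix, ranged from 96.0 to 215 CPM in STZ-HFD and from 74.8 to 200 CPM in Con+Veh, and its log2 ratio was -0.14 (SE = 0.35, limma adjusted p = 0.876) whose sign turned positive with edgeR and with DESeq2. *Scx* had 22 to 244 counts per library in this cohort, with 1.64 to 5.43 CPM in STZ-HFD and 1.19 to 6.63 CPM in Con+Veh, and its log2 fold change of 0.30 (SE = 0.43, limma adjusted p = 0.768) was the only positive value among the 10. The scatter of *Scx* within each group was larger than the difference between them. *Scx* lies within *Bop1* on the opposite strand, with 0 shared exonic bases.

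**Figure D2:**
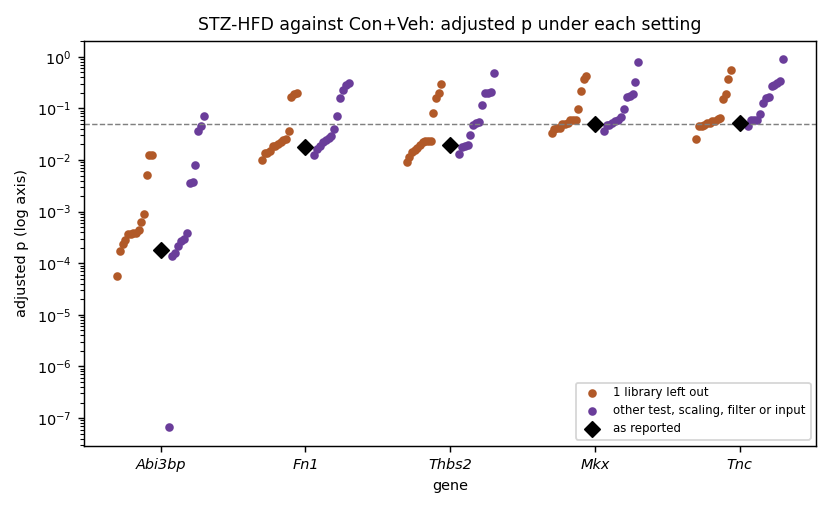
Adjusted p (log axis) for STZ-HFD against Con+Veh of 5 genes; diamonds are the values as reported, brown points the 14 fits that left out 1 library, purple points the 13 fits with another test, scaling, filter or input, and the dashed line marks 0.05. *Abi3bp* stayed under the line in all but 1 fit, while the points of *Fn1*, *Thbs2*, *Mkx* and *Tnc* fell on both sides of it.

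Summed markers of cell types moved in the same comparison. The chondrocyte list holds *Acan*, *Col2a1* and *Hapln1*, which the paper counts among the genes of the IVD matrix. The summed level of 8 chondrocyte markers was 1701, 1289, 2249 and 2956 CPM in Con+Veh and 671, 613, 507 and 1222 CPM in STZ-HFD, without overlap. Of single genes tested, 2.77% were lower in STZ-HFD without overlap. Of the 8 markers, 4 were called lower (*Sox9*, *Acan*, *Col2a1* and *Hapln1*), beside 1.31% of all genes tested. The sum of 11 skeletal muscle markers was 9260 to 12340 CPM in Con+Veh and 9799, 24293, 26959 and 23201 CPM in STZ-HFD. Of these 11, 5 were called higher (*Pvalb*, *Tnni2*, *Acta1*, *Myh2* and *Myh1*), beside 1.30% of all genes tested. The part of either in the lower levels of *Abi3bp*, *Fn1*, *Thbs2* and *Mkx* was not tested. Among the remaining lists in STZ-HFD, called genes were 1 of 7 adipocyte markers (*Plin4*, higher), 2 of 7 macrophage markers (*Cd68* and *Lyz2*, lower) and 2 of 8 osteoblast markers (*Alpl* and *Ibsp*, lower), and 0 of the markers of nucleus pulposus cells, Schwann cells, endothelium, mural cells and fascial fibroblasts. The shares over all genes tested were again 1.30% called higher and 1.31% called lower.

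**Figure D3:**
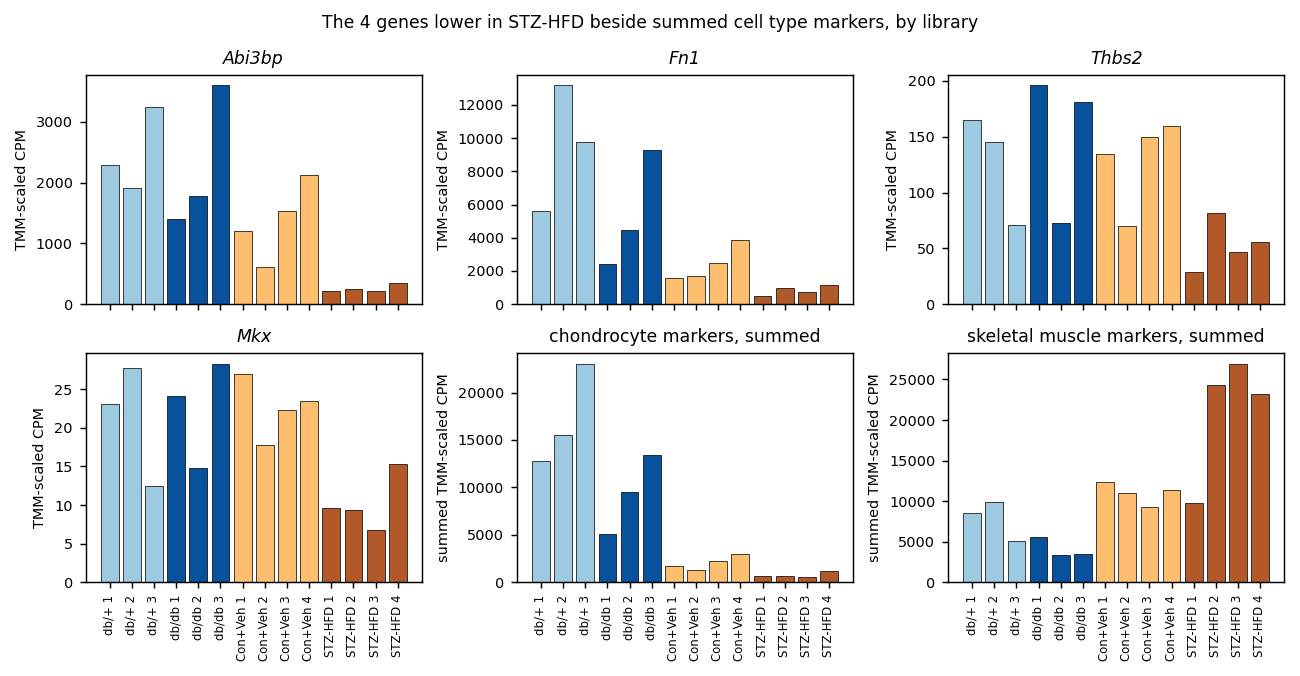
Levels (TMM-scaled CPM, linear axes from 0) in every library of the 4 genes called lower in STZ-HFD, beside the summed levels of 8 chondrocyte and 11 skeletal muscle markers; each bar is 1 mouse and colours mark the 4 groups. The STZ-HFD libraries lay below all Con+Veh libraries for *Abi3bp*, *Fn1*, *Mkx* and the chondrocyte markers and overlapped them for *Thbs2*, while muscle markers were at 23201 CPM or above in STZ-HFD replicates 2, 3 and 4 and at 9799 CPM in replicate 1.

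In db/db IVDs, 0 of the 10 genes was called against db/+ (limma), where 1.66% of all genes tested were called. At an unadjusted p under 0.05 there were 3, *Postn*, *Tnmd* and *Tnc*, beside 21.1% of all genes tested. DESeq2 called 1 of the 10, *Tnmd*, and over all 16915 genes it called 158 higher and 53 lower. With edgeR's quasi-likelihood test 0 of all 16915 genes were called, so its 0 says nothing particular of the 10. The median log2 fold change of the 10 genes (limma) was -0.02, beside -0.04 over all genes tested, with 5 values above 0 and 5 below. *Postn* (ENSMUSG00000027750) was at 26.2, 23.6 and 13.0 CPM in db/+ and at 74.6, 34.0 and 36.3 CPM in db/db. All db/db libraries were above all db/+ libraries, as 25.8% of the genes tested did not overlap in either direction. Its log2 fold change was 1.13 (SE = 0.31, limma adjusted p = 0.0615), and no fit that left out 1 library called it, with values from 0.78 to 1.38.

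*Tnmd* (ENSMUSG00000031250, chromosome X from 133850980 to 133865577) was at 11.8, 10.03 and 3.84 CPM in db/+ and at 54.6, 8.17 and 23.0 CPM in db/db. The groups overlapped, and db/db replicate 1 stood far above the others. The fitted log2 fold change was 1.44 (SE = 0.49, limma adjusted p = 0.116). DESeq2 called it at 1.74 (adjusted p = 0.0411), as did limma without db/db replicate 2, at 2.15 (adjusted p = 0.0402), and without db/db replicate 1 the value was 0.78. Log2 fold changes in this comparison fell as the GC content of genes rose, with medians of 0.40 in the lowest and -0.51 in the highest of 20 GC bins. *Postn*, at 36.3% GC, lay in the lowest bin, and with the trend removed its log2 fold change was 0.74 and that of *Tnmd*, at 43.0% GC, was 1.17.

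*Fn1*, *Tnc* and *Abi3bp*, of which *Tnc* was not called in STZ-HFD, varied widely within the db groups. *Fn1* was at 5607, 13175 and 9758 CPM in db/+ and at 2407, 4439 and 9303 CPM in db/db (log2 fold change of -0.96, SE = 0.49, limma adjusted p = 0.276). *Tnc* was at 468, 191 and 440 CPM in db/+ and at 147, 281 and 171 CPM in db/db (log2 fold change of -0.77, SE = 0.35, limma adjusted p = 0.221). For both genes the db/db mean was lower but the libraries overlapped. *Abi3bp* was at 2290, 1909 and 3247 CPM in db/+ and at 1405, 1777 and 3600 CPM in db/db, and the library with the highest level of all 14 was a db/db library. *Thbs2* (71.4 to 165 CPM in db/+ and 72.8 to 196 in db/db), *Thbs4* (88.6 to 313 and 170 to 438), *Mkx* (12.4 to 27.8 and 14.7 to 28.3) and *Scx* (1.65 to 2.28 and 1.46 to 2.12) overlapped between the groups, with log2 fold changes from -0.10 to 0.31.

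A pair of libraries of this cohort stood at opposite ends for *Tnmd*, *Postn*, *Thbs2* and *Thbs4*. Among the 6 db libraries, db/+ replicate 3 had the lowest *Tnmd*, *Postn*, *Thbs2*, *Thbs4* and *Mkx* levels, and db/db replicate 1 had the highest *Tnmd*, *Postn*, *Thbs2* and *Thbs4* levels and the lowest *Fn1*, *Tnc* and *Abi3bp* levels. The chondrocyte marker sum was highest in db/+ replicate 3 (23048 CPM) and lowest in db/db replicate 1 (5123 CPM). The sum of 5 fascial fibroblast markers was lowest in db/+ replicate 3 (95.6 CPM) and highest in db/db replicate 1 (269 CPM). The macrophage sum was likewise lowest in db/+ replicate 3 (97.7 CPM) and highest in db/db replicate 1 (219 CPM). Mural cell, endothelium and adipocyte sums were also lowest in db/+ replicate 3 (343, 136 and 215 CPM), but were not highest in db/db replicate 1. The fascial fibroblast sum did not overlap between db/+ (95.6 to 153 CPM) and db/db (170 to 269 CPM). Adipocyte markers were at 215 to 462 and 335 to 609 CPM with 3 of 7 called higher (*Adipoq*, *Plin1* and *Fabp4*), beside 1.23% of all genes tested. In db/db replicates 1, 2 and 3 the adipocyte sum was 443, 609 and 335 CPM. Skeletal muscle markers were at 5100 to 9934 CPM in db/+ and 3317 to 5591 CPM in db/db with *Myh1* called lower. The osteoblast sum (1336 to 1899 CPM in db/+ and 851 to 977 in db/db) and the endothelium sum (136 to 194 and 228 to 252 CPM, with *Tek* called higher) did not overlap either. Of single genes tested, 25.8% did not overlap in this comparison, in either direction. Of the fascial fibroblast, macrophage, mural cell and osteoblast markers, 0 were called. The part of these markers in the values of *Postn* and *Tnmd* was not tested.

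**Figure D4:**
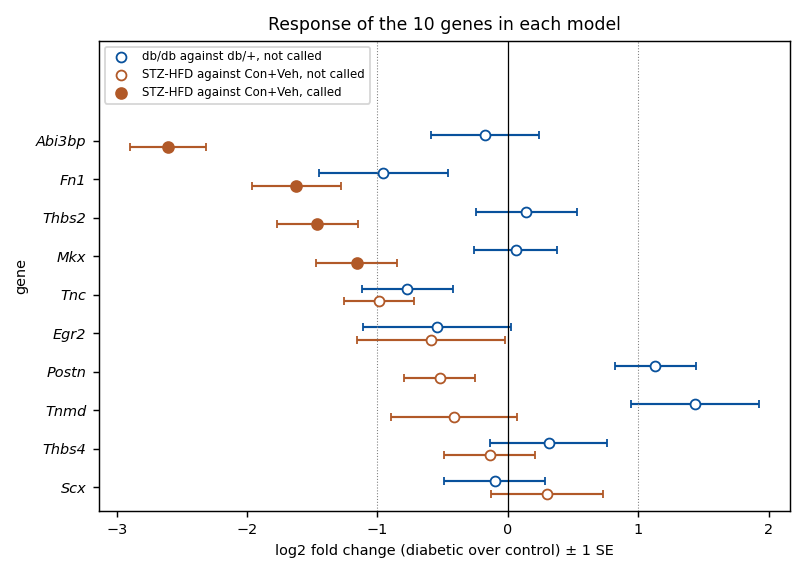
Log2 fold changes with 1 standard error (horizontal axis) of the 10 genes, in db/db against db/+ (blue) and STZ-HFD against Con+Veh (brown); filled points were called and dotted lines mark the minimum fold. *Abi3bp* was at -2.61 in STZ-HFD and -0.18 in db/db, and *Postn* and *Tnmd* lay on opposite sides of 0 in the models.

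The response of *Abi3bp* differed between the models. The difference of its log2 fold changes, STZ-HFD minus db/db, was -2.43 (SE = 0.51, limma adjusted p = 0.0280), and 1.77% of all genes tested passed this test of the difference. It was the only gene of the 10 to pass, and it passed in 8 of 14 fits that left out 1 library, and with DESeq2 (adjusted p = 0.00633) but not with edgeR's quasi-likelihood test (adjusted p = 0.196). Without Con+Veh replicate 3 or 4 or STZ-HFD replicate 3, the differences were -2.42, -2.12 and -2.29 and the adjusted p 0.124, 0.0855 and 0.0756 (limma). Without db/+ replicate 1 or 2 or db/db replicate 3, they were -2.37, -2.23 and -2.03, with adjusted p = 0.0581, 0.0896 and 0.0777 (limma). *Postn* lay just outside the threshold, with a difference of -1.66 (SE = 0.41, limma adjusted p = 0.0501), from a positive value in db/db and a negative value in STZ-HFD. For *Thbs2* the difference was -1.60 (limma adjusted p = 0.103), for *Tnmd* -1.85 (limma adjusted p = 0.172) and for *Mkx* -1.22 (limma adjusted p = 0.165), and none of these was shown to differ between the models. For *Fn1*, which had a negative value in both, the difference was -0.67 (SE = 0.60, limma adjusted p = 0.619).

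The thrombospondin and tenascin genes were also compared by their upstream sequence, because *Thbs2* was lower in STZ-HFD while its relative *Thbs4* was not. RefSeq start sites of build GRCm38.p6 were matched for 6 of the 10 genes (*Postn*, *Tnc*, *Egr2*, *Thbs4*, *Thbs2* and *Tnmd*). The 250 bases before the start site were searched for CANNTG, the E-box letters that basic helix-loop-helix factors such as scleraxis recognise and that read the same on both strands. The motif was in 66.2% of the 32851 windows of this length, with a median of 1 match. The sequences below, written 5′ to 3′ on the strand of the gene, carry the matches in capitals.
Thbs2, chr17:14694263-14694512, minus strand: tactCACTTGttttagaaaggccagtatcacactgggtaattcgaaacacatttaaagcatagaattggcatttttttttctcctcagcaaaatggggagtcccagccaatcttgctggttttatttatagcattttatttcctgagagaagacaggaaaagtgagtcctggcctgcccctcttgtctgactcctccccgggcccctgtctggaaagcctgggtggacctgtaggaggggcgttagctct
Thbs4, chr13:92794819-92795068, minus strand: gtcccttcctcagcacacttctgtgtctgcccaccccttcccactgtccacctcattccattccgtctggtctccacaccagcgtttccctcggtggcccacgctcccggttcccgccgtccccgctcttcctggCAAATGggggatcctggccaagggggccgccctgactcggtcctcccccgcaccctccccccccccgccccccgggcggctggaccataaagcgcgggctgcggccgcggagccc
Tnc, chr4:64047016-64047265, minus strand: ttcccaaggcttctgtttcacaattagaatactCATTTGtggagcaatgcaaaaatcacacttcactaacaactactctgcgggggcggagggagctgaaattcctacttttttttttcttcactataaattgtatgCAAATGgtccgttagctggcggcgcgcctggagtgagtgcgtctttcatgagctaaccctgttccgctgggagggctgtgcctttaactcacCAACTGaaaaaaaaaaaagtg
Tnmd, chrX:133850758-133851007, plus strand: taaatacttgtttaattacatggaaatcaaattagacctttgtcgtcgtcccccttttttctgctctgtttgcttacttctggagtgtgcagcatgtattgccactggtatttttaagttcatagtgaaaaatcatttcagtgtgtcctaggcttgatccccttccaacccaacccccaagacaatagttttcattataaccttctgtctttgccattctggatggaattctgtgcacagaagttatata
*Thbs2* had 1 match, which began 246 bases before the start site, and *Thbs4* had 1, which began 115 bases before it. *Tnc* had 3, at 217, 113 and 21 bases. *Tnmd* and both *Postn* windows had 0. The *Thbs4* window had a GC content of 70.8% and that of *Thbs2* 46.8%. The letters GCGNGGGCG, the site of the EGR family searched on both strands, were in 4.7% of all windows and in both *Tnc* windows, 171 bases before the start site shown here. These matches are descriptions of the sequence and were not tested against expression.

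*Fn1* transcripts were compared because fibronectin is spliced differently between tissues. The transcript table lists 16 of the 17 annotated *Fn1* transcripts, and 2 of them, Fn1-203 and Fn1-216, each held at least 20% of the estimated counts in a group mean. Both lack the exons of 270 bases (chromosome 1 from 71603660 to 71603929) and 273 bases (from 71613763 to 71614035), which encode the extra type III repeats A and B of cellular fibronectin. They differ in the variable region, where Fn1-203 has an exon of 467 bases and Fn1-216 keeps 107 bases of it. Fn1-216 took 29.4%, 69.7% and 56.4% of the estimated *Fn1* counts in db/+, 40.4%, 60.7% and 67.1% in db/db, 17.0%, 61.4%, 35.5% and 28.6% in Con+Veh and 60.8%, 28.8%, 17.7% and 53.9% in STZ-HFD. The shares overlapped in both comparisons, and the spread within a group exceeded the difference between groups. Fn1-201, which holds both extra exons, was not analysed here. *Abi3bp* was nearly all Abi3bp-206, at 93.0% to 98.8% of its estimated counts in every library, and *Thbs2* and *Thbs4* were 99.5% to 100% and 99.7% to 100% a single transcript. *Scx* estimates were divided between Scx-201 (23.0% to 100%) and Scx-202, which is annotated as a retained intron. These shares rest on few estimated counts per library, 2.55 to 93 for Scx-201 and 0 to 23.1 for Scx-202, and are imprecise.

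*Egr2* varied between libraries within every group. Its levels were 2.34, 6.80 and 5.72 CPM in db/+, 2.30, 5.02 and 2.70 CPM in db/db, 3.37, 1.06, 7.47 and 10.1 CPM in Con+Veh and 7.11, 8.36, 4.50 and 2.38 CPM in STZ-HFD. The groups overlapped, with a log2 fold change of -0.54 in db/db (limma adjusted p = 0.618) and -0.59 in STZ-HFD (limma adjusted p = 0.642), and the latter turned positive with edgeR and DESeq2. The summed level of 9 Schwann cell markers was 545, 2926 and 874 CPM in db/+, 775, 1120 and 588 CPM in db/db, 337, 402, 2692 and 2768 CPM in Con+Veh and 2228, 2252, 920 and 501 CPM in STZ-HFD. In each of the 4 groups the library with the highest Schwann cell sum also had the highest *Egr2*, and the 5 libraries with a sum above 2000 CPM had 6.80 to 10.1 CPM of *Egr2* while the other 9 had 1.06 to 5.72 CPM. The sum of 10 immediate early genes, another setting in which EGR genes are induced, was 176 to 281 CPM in Con+Veh and 112 to 210 CPM in STZ-HFD. The family relative *Egr4*, which is not among these 10, was at 0 in 8 libraries. The part of nerve RNA in the level of *Egr2* was not tested.

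**Figure D5:**
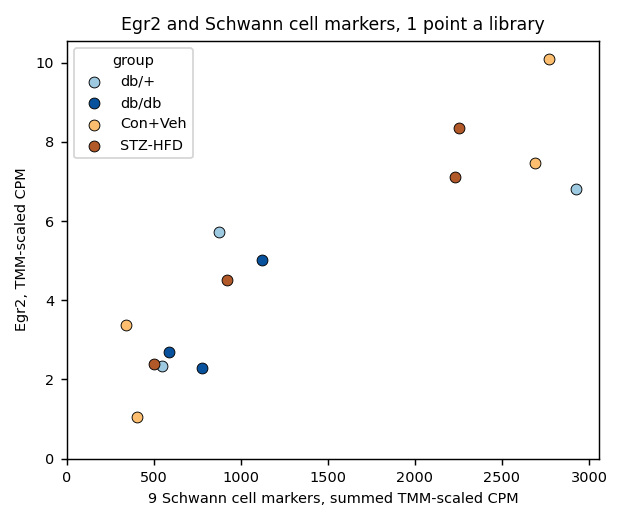
*Egr2* level (vertical axis, TMM-scaled CPM) against the summed level of 9 Schwann cell markers (horizontal axis, TMM-scaled CPM), 1 point a library, coloured by group. The 5 libraries above 2000 CPM of Schwann cell markers came from db/+, Con+Veh and STZ-HFD and held the 5 highest *Egr2* levels.

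Genes that act with these proteins were described from 4 lists. Of 16 collagens and proteoglycans of fibrous tissue, 4 were called lower in STZ-HFD and 0 higher, beside 1.31% of all genes tested called lower, with a median log2 fold change of -0.82 beside -0.04 over all genes. They were *Fmod* (fibromodulin, -1.58), *Dcn* (decorin, -1.65), *Col6a1* (-1.33) and *Col6a2* (-1.32), of which *Fmod* had no overlap between groups, at 293 to 604 CPM in Con+Veh and 122 to 228 CPM in STZ-HFD. *Dcn* was at 335 to 1122 CPM in Con+Veh and 223 to 349 CPM in STZ-HFD. *Col1a1* and *Col1a2*, the main tendon and annulus collagen, were not called, with -0.84 (limma adjusted p = 0.104) and -0.82 (limma adjusted p = 0.0772). Of 10 family relatives tested, 3 were called lower, against the same 1.31%: *Thbs1* (thrombospondin-1, -1.95), *Tgfbi* (the periostin relative, -1.63) and *Comp* (thrombospondin-5, -1.45). *Tgfbi* was at 146 to 206 CPM in Con+Veh and 28.5 to 88.2 CPM in STZ-HFD, without overlap, and the median of the relatives was -1.21. In db/db, 0 genes of either list were called (limma), with medians of 0.03 and -0.39.

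Of 24 genes of the TGF-β, growth differentiation factor, fibroblast growth factor and mechanical signals that induce tendon genes, 0 were called in either model. In STZ-HFD the type 2 TGF-β receptor *Tgfbr2* (-0.86, adjusted p = 0.0317, limma) and the transcriptional coactivator *Wwtr1* (-0.85, adjusted p = 0.0276, limma) had adjusted p-values under 0.05 but were below the minimum fold. Among 12 receptors for matricellular proteins, the thrombospondin and fatty acid receptor *Cd36* was called higher in both models, against 1.23% of all genes tested in db/db and 1.30% in STZ-HFD. It rose from 6.72 to 11.4 CPM in db/+ to 35.0 to 45.2 CPM in db/db (log2 fold change of 2.16), and was at 15.6 to 42.6 CPM in Con+Veh and 28.0 to 87.5 CPM in STZ-HFD (log2 fold change of 1.12). *Cd36* is also abundant in adipocytes, whose marker sum was 420 to 918 CPM in Con+Veh and 933 to 1062 CPM in STZ-HFD. In the db groups this sum overlapped, at 215 to 462 CPM in db/+ and 335 to 609 CPM in db/db. The part of these or of other cells in the level of *Cd36* was not tested. The heparan sulphate proteoglycan *Sdc4*, a co-receptor for fibronectin, was called lower in STZ-HFD (-1.28), at 31.6 to 98.0 CPM in Con+Veh and 19.7 to 49.4 CPM in STZ-HFD. Without Con+Veh replicate 3, Con+Veh replicate 4 or STZ-HFD replicate 3, the number of calls in these 4 lists over both models fell from 10 to 1, which was *Cd36* each time. Calls over all genes tested in STZ-HFD fell as well, from 220 higher and 221 lower to 3 and 14, 4 and 14, and 3 and 15. With edgeR's quasi-likelihood test 0 genes of the lists were called, and over all genes 6 higher and 23 lower in STZ-HFD and 0 in db/db.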

How the data were processed

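RNA from the IVDs of 14 mice was sequenced after SeqPlex amplification, per the labels. The authors aligned reads with STAR to Ensembl release 101 and deposited whole-number gene counts from featureCounts without normalization, and estimated counts per transcript from Salmon, which were used for transcript shares and, summed per gene and rounded, for 1 alternative. Of 55774 lines, 287 repeated identifiers were dropped. Counts were scaled by edgeR 4.0.16 TMM factors and tested with limma 3.58.1 voomWithQualityWeights in R 4.3.3, the test the study names, in a single fit with 1 mean per group and Benjamini-Hochberg adjustment over 16915 genes. Positions and lengths came from GENCODE M21 (GRCm38). Replicates are separate mice, per the methods of the study. Same-numbered libraries deviated together no more than others (mean r of -0.08 and -0.11, against 0.04 and 0.04). With so few pairs a cohort, these values cannot decide whether the numbers pair the mice. The paper calls the db/+ mice littermate controls and does not state which mice were littermates. The 10 genes, the lists and the tests were chosen with earlier results of these data known. Alternatives were DESeq2 1.42.0, edgeR's quasi-likelihood test, unweighted voom, other scalings and filters, each model alone, a replicate block, no minimum fold, removal of the GC trend or of ribosomal RNA genes, and leaving out libraries. All members were named, of the lists of related genes the called genes, and of marker lists the summed level, the called genes and the genes at 0. The tests were tried on simulated data.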

Additional observations from a re-analysis of the deposited data

Results flagged for a closer look

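Of the 150 genes of the member, related and marker lists that were tested, 14 differed in response between the models by the test of the difference itself, beside 1.77% of all genes tested. Of these, 9 had a negative and 5 a positive difference. *Abi3bp* had a difference of log2 fold changes (STZ-HFD minus db/db) of -2.43 (adjusted p = 0.0280, limma). *Dcn* had a difference of -2.53 (adjusted p = 0.0176, limma) and *Tgfbi* of -1.95 (adjusted p = 0.0267, limma), and both were called lower in STZ-HFD and not called in db/db. A receptor for matricellular proteins, *Cd47*, had a difference of -1.42 (adjusted p = 0.0336, limma). The 5 positive differences were those of the skeletal muscle markers *Myh1* (2.77), *Myh2* (2.74), *Acta1* (2.20), *Pvalb* (2.10) and *Ckm* (2.10). The remaining negative differences were those of the macrophage markers *Lyz2* (-1.998) and *Mrc1* (-1.94), the endothelium markers *Emcn* (-1.40) and *Tek* (-1.24) and the fascial fibroblast marker *Cd34* (-1.63). In the 20 pairs of a gene and a group of 4 mice, no library stood apart from the other 3 by Dixon's criterion.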

How the results depend on the processing

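Of the 10 genes, 4 were called lower in STZ-HFD. Without 1 library, 1 to 4 were called, and 1 without Con+Veh replicate 3, Con+Veh replicate 4 or STZ-HFD replicate 3, which was *Abi3bp*. Over all genes tested, 220 were called higher and 221 lower in STZ-HFD. Without these libraries the calls over all genes were 3 and 14, 4 and 14, and 3 and 15. In the following, calls over all genes (higher and lower) are in brackets. Of the 10 genes, 1 was called with edgeR's quasi-likelihood test (6 and 23) and with voom without quality weights (3 and 16). It was also 1 with gene totals from transcript counts (30 and 26) and with the replicate block (2 and 4). The number was 2 with filterByExpr (103 and 114) and without Con+Veh replicate 2 and STZ-HFD replicate 4 (68 and 176). It was 0 with no filter on low counts (95 and 35), where 46963 genes were tested. In db/db the number was 0, against 1 with DESeq2, 4 with the replicate block (*Fn1*, *Postn*, *Tnc* and *Tnmd*) and 0 to 1 without 1 library. Over all genes, db/db calls were 208 higher and 73 lower, against 158 and 53 with DESeq2 and 796 and 688 with the replicate block. Whether replicate numbers mark related mice is not known, so the block was not read as a weaker or stronger effect. The number of genes of the 10 whose response differed between the models was 1, against 0 with edgeR, with voom without weights, with no filter, with the replicate block and with transcript totals, 2 with RLE or upper quartile factors and 0 to 3 without 1 library. Over all genes, 161 positive and 139 negative differences passed. With edgeR these were 0 and 5, with voom without weights 0 and 3 and with the replicate block 0 and 2. They were 144 and 98 with no filter and 32 and 30 with transcript totals. Among the genes of the 4 lists, 10 calls became 0 with edgeR and 1 without Con+Veh replicate 3, Con+Veh replicate 4 or STZ-HFD replicate 3, which were chosen after seeing the data. The cause of these changes was not tested.

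Signs turned for values near 0. In db/db, removing the GC trend gave 0.40 for *Scx* and -0.21 for *Mkx*, and leaving out 1 library gave -0.23 to 0.031 for *Scx*, -0.23 to 0.36 for *Mkx*, -0.17 to 0.73 for *Thbs4*, -0.18 to 0.59 for *Thbs2* and -0.58 to 0.10 for *Abi3bp*. In STZ-HFD, *Thbs4* was 0.046 with edgeR, 0.064 with DESeq2, 0.028 with voom without weights, 0.071 with no filter, 0.10 with transcript totals and -0.33 to 0.12 without 1 library. *Egr2* was 0.034, 0.060 and 0.60 in the first 3 of these fits and -1.02 to 0.023 without 1 library. Where a left-out library leaves 2 mice in a db group, the spread is shared with the other groups. At 22 to 244 counts per library, *Scx* was the gene with the fewest reads behind its values.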
